A study of Homo sapiens with 8 samples.

Results

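The AP-1 loci are the genes of 7 transcription factors, JUN, JUNB, JUND, FOS, FOSB, FOSL1 and FOSL2, each taken as its hg19 span plus 50 kb on either side. All 7 were examined, and every peak that touched one of these windows was kept. This gave 120 CHD4 peaks, which fell into 56 merged regions of the 18808 regions found over the whole genome. The peaks came from chromatin immunoprecipitation and sequencing (ChIP-seq) of CHD4 in SCC9, an established squamous carcinoma line. CHD4 is the ATP-driven motor of NuRD, a complex that joins nucleosome remodelling to histone deacetylation, and DOC1 (CDK2AP1) is a small subunit of that complex. The 3 libraries labelled lacZ are from SCC9 cells without DOC1 and the 3 labelled DOC1 from SCC9 cells with it. Both were grown in the same medium with fetal calf serum and hydrocortisone. The labels do not give the vectors, the number of clones or whether numbered libraries are separate cultures, so the spread between libraries may be technical.

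AP-1 is a family of dimers built from basic leucine zipper proteins. Jun proteins pair with each other or with Fos proteins, whereas Fos proteins need a Jun partner, and the dimers bind short palindromic DNA elements. Several of these genes are switched on within minutes of growth factor or stress signals, and in squamous epithelium the family takes part in differentiation, wound responses and invasion. NuRD is found at promoters and enhancers, active ones included. The question here was where CHD4 peaks lay at these genes and whether their number or place differed with DOC1.

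Promoter sequences are given for JUN, FOS and FOSL2, the genes at whose start a CHD4 summit fell less than 250 bp upstream in 1 of the lists (in DOC1 3 for JUN and FOS, in DOC1 1 for FOSL2). Each is the 250 bases before the gene start in RefSeq's GRCh38.p14 models, 5′ to 3′ on the gene's strand, with capitals marking the motifs searched for. Those models differ in length from the hg19 spans used for the peaks, so their starts need not coincide.
JUN, chr1:58784048-58784297, minus strand: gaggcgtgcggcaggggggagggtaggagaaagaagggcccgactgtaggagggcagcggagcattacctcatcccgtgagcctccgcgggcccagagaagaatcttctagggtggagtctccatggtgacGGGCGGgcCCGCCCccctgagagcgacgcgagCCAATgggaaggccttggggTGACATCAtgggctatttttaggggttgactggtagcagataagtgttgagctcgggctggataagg
FOS, chr14:75278578-75278827, plus strand: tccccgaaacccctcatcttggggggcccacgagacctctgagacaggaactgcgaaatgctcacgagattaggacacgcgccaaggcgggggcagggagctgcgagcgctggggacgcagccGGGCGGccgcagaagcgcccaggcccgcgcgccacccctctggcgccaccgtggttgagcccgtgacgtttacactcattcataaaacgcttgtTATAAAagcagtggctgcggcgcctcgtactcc
FOSL2, chr2:28392608-28392857, plus strand: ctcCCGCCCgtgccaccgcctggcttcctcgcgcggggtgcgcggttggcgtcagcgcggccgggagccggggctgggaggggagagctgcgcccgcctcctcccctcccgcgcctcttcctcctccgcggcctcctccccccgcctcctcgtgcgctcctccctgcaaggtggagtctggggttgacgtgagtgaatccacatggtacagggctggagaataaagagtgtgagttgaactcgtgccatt
The JUN promoter held TGACATCA, a variant of the AP-1 site, with its first base 67 bases before the start. It also held CCAAT at 87 bases and GGGCGG, the GC box, once on each strand. In FOS the matches were GGGCGG at 127 bases and TATAAA at 33 bases before the start. The FOSL2 window held GGGCGG alone, on the other strand, at its upstream edge. The classical AP-1 site TGANTCA was in none of the 6 AP-1 promoters listed (JUN, JUNB, JUND, FOS, FOSB and FOSL2), beside 6.57% of all 35116 promoter windows of this length. Both strands were searched throughout. TGACATCA was in 1 of the 6 (2.37% of all), TGACGTCA, the cyclic AMP response element, in 1 of the 6 (JUND, 1.65% of all) and GGGCGG in 5 of the 6 (42.6% of all). CCAAT was in 3 of the 6 (32.0% of all) and TATAAA in 3 of the 6 (10.7% of all). No 2 of these motifs share a stretch in the 3 windows shown.

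The 6 lists are of unequal length, with 7027, 2812 and 4723 peaks for lacZ and 7834, 3448 and 11032 for DOC1. Values of a group are given in the order of its libraries 1, 2 and 3. The authors' fold enrichment, a ratio of summit reads to local background, belongs to each peak in its own list and is used below to rank it there. Read numbers under each AP-1 summit, solved from its statistics, ranged from 24 to 100, 19 to 55 and 14 to 42 in the lacZ lists. In the DOC1 lists they ranged from 9 to 27, 17 to 24 and 19 to 73. At such depths a site can pass the peak threshold in 1 library and miss it in another, so a missing peak does not show that CHD4 was absent. Whether depth accounts for the missing peaks was not tested. DOC1 2 stood apart with 3 peaks at the 7 loci.

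CHD4 peaks were denser around the AP-1 genes than over the whole genome in each library, least so in DOC1 2. The 7 windows, 747.8 kb in all, held 26, 12 and 18 peaks in the lacZ libraries and 22, 3 and 39 in the DOC1 libraries. Both the lowest and the highest number were thus DOC1 libraries, and the lacZ values lay between them. Peaks per Mb in the windows were 15.1, 17.4 and 15.5 times those over the genome in the lacZ lists and 11.4, 3.54 and 14.4 times in the DOC1 lists. The windows were not compared with windows around other genes. The means were 18.7 ± 7.02 peaks in lacZ and 21.3 ± 18.0 in DOC1 cells (SD, n = 3). The difference of 2.67 peaks was smaller than either SD (two-sided exact permutation p = 0.9; with 3 libraries against 3 no p can be below 0.1). It turned to -6.17 without DOC1 3 and to -0.67 without lacZ 2, and rose to 11.8 without DOC1 2.

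Relative to the length of each list, AP-1 peaks were more frequent in every lacZ library than in any DOC1 library. They made up 3.70, 4.27 and 3.81 of every 1000 peaks in the lacZ libraries and 2.81, 0.87 and 3.54 in the DOC1 libraries. The means were 3.93 ± 0.30 and 2.40 ± 1.38 (SD, n = 3), a difference (DOC1 minus lacZ) of -1.52. The exact permutation p was 0.1, the smallest possible, and 0.3 after Benjamini-Hochberg adjustment over the 3 measures compared per library. The third measure was the number of gene starts with a peak nearby. Without DOC1 2 the difference was -0.75, with the groups still apart (exact p = 0.1, the smallest 10 assignments allow). In lists of equal length it was -1.19, with overlapping groups (exact p = 0.3). The groups also overlapped with a flank of 25 kb, where it was -0.76 (exact p = 0.5).

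**Figure D1:**
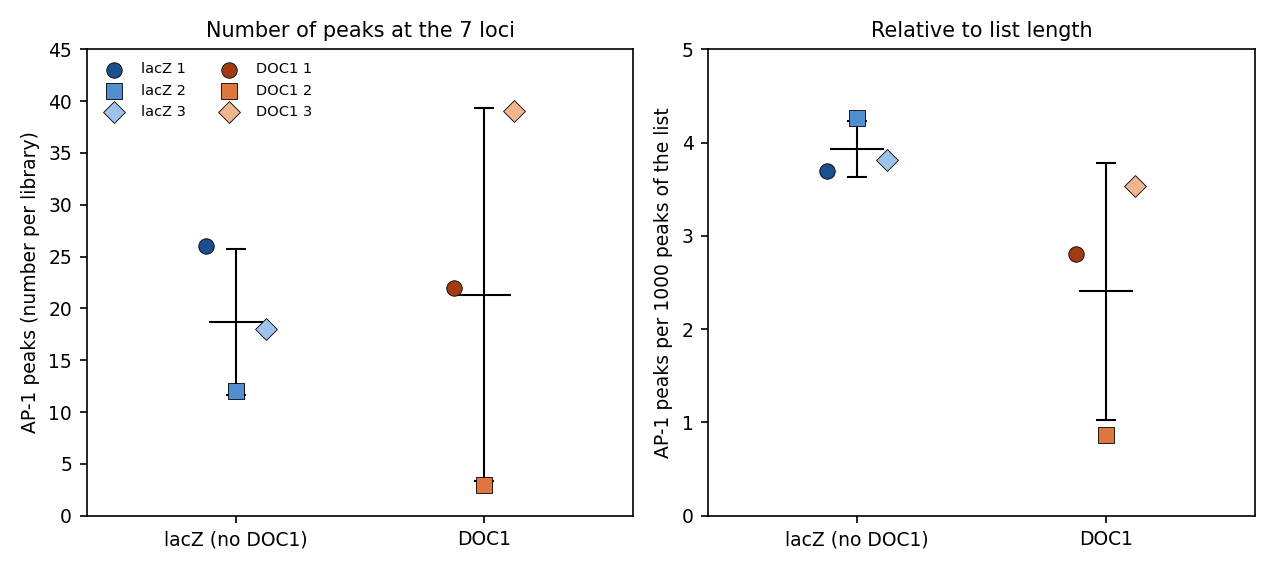
CHD4 peaks at the 7 AP-1 loci, 1 point per library, as a number (left axis: peaks per library) and per 1000 peaks of the library's list (right panel); long bars are group means and error bars SD (n = 3). The DOC1 numbers range from 3 to 39 around the lacZ numbers, whereas per 1000 peaks the 3 lacZ libraries, from 3.70 to 4.27, lie above the 3 DOC1 libraries.

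Of the 56 AP-1 regions, 28 held peaks of DOC1 libraries alone, 12 of lacZ libraries alone and 16 of both groups. They were 50.0%, 21.4% and 28.6% of the AP-1 regions, beside 55.4%, 16.7% and 27.8% of all regions. Without DOC1 3 the AP-1 counts were 14, 21 and 7 (33.3%, 50% and 16.7%, beside 43.4%, 32.9% and 23.7% of all regions). Without lacZ 1 they were 33, 7 and 11 (64.7%, 13.7% and 21.6%, beside 69.3%, 9.64% and 21% of all regions). A single library gave 27 regions (48.2%), 14 of them in DOC1 3, while 56.2% of all regions were of 1 library. Regions in 3 or more libraries numbered 16 (28.6%, against 23.8% of all regions), and 8 without lacZ 1 (15.7%, against 17.5% of all regions). By place, 30 regions lay upstream of the gene start, 7 within a gene span and 19 downstream of the gene. These counts are not set against the length of each part or against other genes. All 6 libraries shared 2 AP-1 regions (3.57%, against 2.75% of all regions), 1 at JUN and 1 at FOSB. Regions in every lacZ and no DOC1 library numbered 4 (7.14%, against 1.18% of all regions): 2 at FOSL1, 1 at JUN and 1 at FOSB. The count was 2 with peaks within 500 bp joined and 1 in lists of equal length, where none of the 4 was kept and the FOSL2 site took their place. Shares over all regions are not given for these settings, so these counts have no background. The count was 7 without DOC1 3 (12.5% of the 56, against 3.00% of all 18808 regions, with regions of DOC1 3 alone kept in both totals). A further 3 (5.36%, against 1.83% of all regions) were in the 3 lacZ libraries and DOC1 3 alone, 1 each at FOS, FOSL1 and FOSL2. No AP-1 region was in every DOC1 and no lacZ library, a pattern that 0.978% of all regions had. Without DOC1 2 the count was 8 (14.3% of the 56, against 10.6% of all 18808 regions). These are the regions of DOC1 1 and DOC1 3 described under their genes. For a single region the most extreme split, all 3 libraries of 1 group and none of the other, has p = 0.1 by Fisher's exact test, so no region can pass.

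With all 6 libraries no locus separated the groups by its number of peaks. Every DOC1 library exceeded every lacZ library at 0 of the 7 loci, and in 1.81% of the 8788 genome tiles of 100 kb that held a peak. The reverse held at 0 of the 7 loci and in 0.853% of tiles. This depended on single libraries. Without DOC1 2 every DOC1 library exceeded every lacZ library at JUND, 1 of the 7 loci, as in 20% of tiles. Without DOC1 3 every lacZ library exceeded every DOC1 library at FOS and FOSL1, 2 of the 7 loci, against 3.64% of tiles. Leaving out any other library separated no locus. Totalled over the 6 lists, the FOSB window held 32 peaks, JUN 22, FOSL2 20, FOSL1 18, JUNB 12, JUND 9 and FOS 7. The median tile with a peak held 2, and 99.5% of such tiles held fewer peaks than the FOSB window and 81.6% fewer than the FOS window. The windows, from 101.8 to 121.7 kb long, are slightly longer than the tiles and can take in other genes, to which no peak was assigned.

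**Figure D2:**
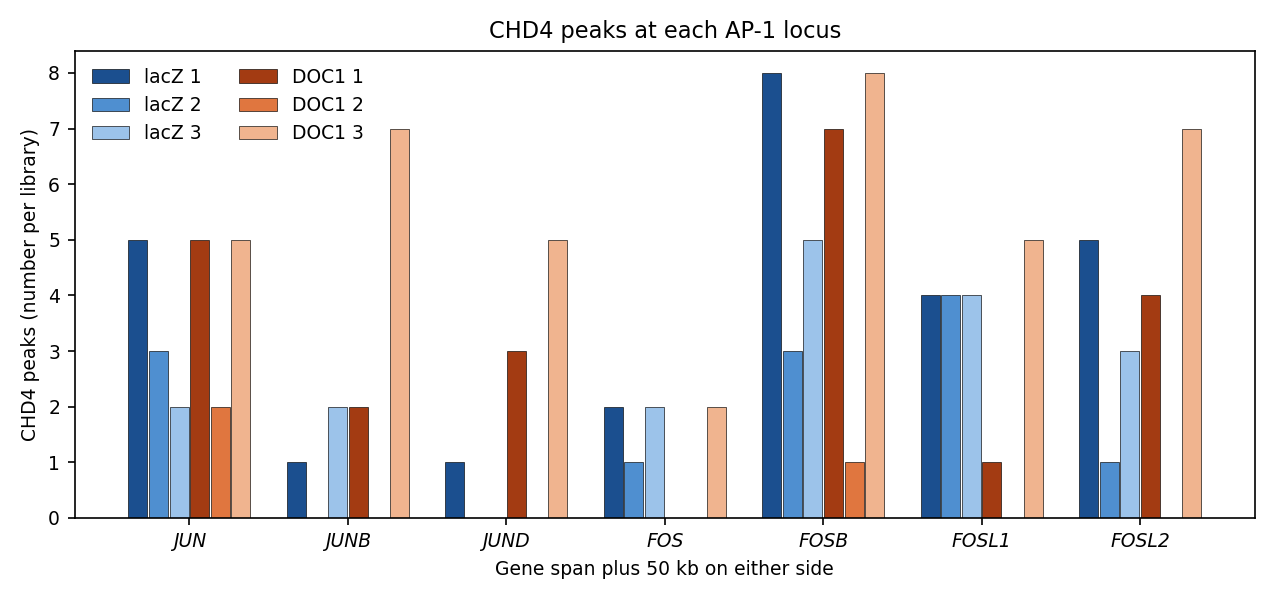
Number of CHD4 peaks (vertical axis) in each AP-1 window (horizontal axis), 1 bar per library; a missing bar is a count of 0. FOSB holds up to 8 peaks in a library, FOSL1 holds 4 in each lacZ library, and DOC1 2 has peaks at JUN and FOSB alone.

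JUN encodes the founding Jun protein, a strong activator in AP-1 dimers. The gene spans 59246463 to 59249785 on the minus strand of chromosome 1, and its window held 5, 3 and 2 peaks in the lacZ libraries and 5, 2 and 5 in the DOC1 libraries. The strongest site lay 31.5 kb past the gene start, downstream of the gene, at 59218054 to 59218694, and held a peak in all 6 libraries. Its fold was 12.1, 9.48 and 8.74 in the lacZ libraries and 11.6, 4.69 and 12.6 in the DOC1 libraries. It stood at or above the 86.4th percentile of 5 lists and at the 28.9th of DOC1 2. The 6 summits lay within 158 bp of each other. At 28.5 kb, next to this site, DOC1 1 and DOC1 3 had summits 1 bp apart (59221261 and 59221262) in a region with no lacZ peak.

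A second recurring JUN site lay 32.1 kb upstream, at 59280933 to 59282091. It was present in every library but lacZ 3, with folds of 5.30 and 5.15 in lacZ 1 and lacZ 2 and 6.77, 7.69 and 4.67 in the DOC1 libraries. This was the best-ranked AP-1 peak of DOC1 2, at the 95.6th percentile of its list. Elsewhere its rank ran from the 22.8th percentile in lacZ 2 to the 73.4th in DOC1 1. The strongest summits were spread over 609 bp here.

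Just upstream of the JUN start, the peaks of the lacZ libraries lay further out than the single DOC1 peak. The region at 59250566 to 59251231 held a peak in each lacZ library, with summits 1251, 1059 and 1167 bp upstream of the start and folds of 6.02, 5.26 and 6.80 in the lacZ libraries. No DOC1 library had a peak in it. DOC1 3 had one 196 bp away, at 59249805 to 59250369, with its summit 167 bp upstream and a fold of 3.98 (16.4th percentile). In lacZ 1 a further peak overlapped that of DOC1 3, with its summit 520 bp upstream. The region formed by these 2 peaks ended at 59250564, only 1 bp short of the lacZ 2 peak. The nearest peaks of DOC1 1 and DOC1 2 were 29.2 and 30.5 kb away. When peaks within 500 bp were joined, the regions became 1 shared by the 3 lacZ libraries and DOC1 3. The lacZ pattern at JUN thus rests on gaps of 196 bp to the DOC1 3 peak and 1 bp between the regions.

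JUNB encodes a Jun protein that often restrains JUN activity. The gene lies at 12902310 to 12904125 of chromosome 19, plus strand. In the RefSeq gene order its neighbours are HOOK2 and PRDX2. The window held 1, 0 and 2 peaks in the lacZ libraries and 2, 0 and 7 in the DOC1 libraries. Of its 8 regions, 7 were upstream of the gene. The one in 3 libraries was centred 7.8 kb upstream, at 12894354 to 12895008, with folds of 5.90 and 6.17 in lacZ 1 and lacZ 3 and 5.34 in DOC1 3. Its summits were spread over 403 bp. The DOC1 3 peak began at 12894651, just before the lacZ 1 peak ended at 12894661, and did not overlap that of lacZ 3. Beside this region, another at 12893509 to 12893787 was seen in DOC1 1 and DOC1 3. No peak of any library came within 1 kb of the JUNB start. The closest was a weak peak of DOC1 1 with its summit 1216 bp upstream, a fold of 4.19 (7.45th percentile) and 9 reads, and it was lost at a q-value threshold of 0.001.

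JUND encodes a broadly expressed Jun protein. The gene lies at 18390504 to 18392466 of chromosome 19, minus strand. Its neighbours are IQCN and LSM4. The window held 1, 0 and 0 peaks in the lacZ libraries and 3, 0 and 5 in the DOC1 libraries. None of its 6 regions was in 3 libraries. Both regions more than 10 kb upstream that 2 libraries shared were of DOC1 1 and DOC1 3. They lay at 18402647 to 18403440 (folds of 5.29 and 6.32) and at 18412261 to 18412729 (5.71 and 6.32). Downstream, the region at 18385738 to 18386021 held peaks of lacZ 1 and DOC1 3. It was the nearest to the gene start, with summits 6584 and 6702 bp past it.

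FOS encodes the classical immediate early partner of Jun. The gene lies at 75745481 to 75748937 of chromosome 14, plus strand. Its neighbours are TMED10 and JDP2 (a gene for a repressive Jun partner). The window held 2, 1 and 2 peaks without DOC1 and 0, 0 and 2 with it. The main site lay 23.4 kb past the start, downstream of the gene, at 75768608 to 75769136. Its folds were 7.16, 6.73 and 6.44 in the lacZ libraries and 7.63 in DOC1 3. It ranked between the 53.3rd and the 79.1st percentile in the lacZ lists and at the 92.3rd in DOC1 3, and its 4 summits lay within 167 bp. The nearest peaks of DOC1 1 and DOC1 2 were 97.7 and 257.1 kb away. At the FOS start itself, DOC1 3 alone had a peak (75745284 to 75745788), with its summit 1 bp before the first base of the span and a fold of 3.57 (8.67th percentile).

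FOSB encodes a Fos protein whose splice forms differ in their activation domain. The gene lies at 45971253 to 45978437 of chromosome 19, plus strand. Its neighbours are ERCC1 and RTN2. The window had the most peaks, 8, 3 and 5 in the lacZ libraries and 7, 1 and 8 in the DOC1 libraries. Of its 11 regions, 7 lay upstream, on the ERCC1 side, and 6 were in 3 or more libraries. The site shared by all 6 libraries lay 39.5 kb upstream, at 45931539 to 45932610. Its folds were 7.53, 8.67 and 9.58 in the lacZ libraries and 7.21, 6.92 and 13.1 in the DOC1 libraries. It ranked high in every list, from the 80.7th percentile in DOC1 1 to the 99.7th in DOC1 3. The strongest summits lay within 179 bp.

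A region next to it, at 45930810 to 45931311, held a peak in each lacZ library (folds of 5.25, 5.47 and 5.73) and in no DOC1 library. The nearest DOC1 peaks were those of the shared site, 424, 323 and 290 bp away in the DOC1 libraries, and joining peaks within 500 bp merged both regions. The libraries lacZ 1, lacZ 3, DOC1 1 and DOC1 3 shared the regions 43.6 kb upstream (45926907 to 45927956) and 10.7 kb past the start (45981575 to 45982646). The first had folds of 10.5 and 6.26 in lacZ 1 and lacZ 3 and 5.77 and 3.25 in DOC1 1 and DOC1 3. The 5.77 belonged to a DOC1 1 peak with its summit at 45927112, apart from the lacZ summits at 45927722 and 45927715. Another DOC1 1 peak in the region, with its summit at 45927651, nearer to those of lacZ, had a fold of 4.22. In the second, fold was 3.02 and 3.26 in lacZ 1 and lacZ 3, at the 1.10th and 1.54th percentile. It was 5.97 and 5.01 in DOC1 1 and DOC1 3, at the 53.5th and 46.1st. The summits of this region were spread over 466 bp. Its lacZ 1 peak overlapped neither DOC1 peak and was joined to them only through the lacZ 3 peak. That lacZ 1 peak was lost at the stricter q-value threshold, which left the region in 3 libraries. Regions 17.4 kb upstream (45953504 to 45954099, in lacZ 1, lacZ 2 and DOC1 3 with folds of 7.30, 7.34 and 7.46) and 11.9 kb upstream (45959153 to 45959944, in lacZ 1, DOC1 1 and DOC1 3 with folds of 5.6, 4.75 and 5.49) were in 3 libraries. Within the gene, DOC1 1 and DOC1 3 shared a region at 45972171 to 45972648, with summits 1122 and 1194 bp past the start and folds of 6.12 and 6.61. No lacZ library had a peak there.

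FOSL1 encodes FRA-1, a Fos protein tied to invasive behaviour in carcinoma cells. The gene lies at 65659692 to 65667997 of chromosome 11, minus strand. Its neighbours are CCDC85B and C11orf68. The window held 4 peaks in each lacZ library and 1, 0 and 5 in the DOC1 libraries. The numbers of the groups overlapped. In the lacZ libraries the peaks nearest to the gene lay upstream of it. The region at 65670207 to 65671075 had folds of 5.12, 6.62 and 5.55 in the lacZ libraries, with the strongest summits 2783, 2388 and 2388 bp upstream of the start. The region at 65677078 to 65677602, centred 9.5 kb upstream, had folds of 6.77, 6.80 and 6.30. Neither held a DOC1 peak. The nearest in DOC1 3 were 3.54 and 1.77 kb away, and in DOC1 1 2.34 and 9.21 kb. Both regions kept the pattern when peaks within 500 bp were joined and at a q-value threshold of 0.001. The first lost it when regions were built from summits, and both lost it in lists of equal length.

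Of the 6 DOC1 peaks at FOSL1, 2 lay within the gene, 3 downstream and 1 upstream, 11.6 kb from the start in DOC1 3. DOC1 1 had its single peak 280 bp past the start (65667601 to 65667863, fold 5.15, 12 reads), and DOC1 3 had one 1510 bp past it (65666377 to 65666671, fold 4.34). These were separate regions of 1 library each. Both groups met downstream, with the strongest summits 39.9 to 40.2 kb past the start, at 65627710 to 65628349, with folds of 6.52, 6.85 and 6.03 in the lacZ libraries and 4.92 in DOC1 3.

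FOSL2 encodes FRA-2, a related Fos protein and the gene with the longest span of the 7. The gene lies at 28615779 to 28637516 of chromosome 2, plus strand. Its neighbours are BABAM2 and PLB1. The window held 5, 1 and 3 peaks in the lacZ libraries and 4, 0 and 7 in the DOC1 libraries. The leading site without DOC1 lay upstream, at 28613401 to 28614822, with folds of 10.9, 7.70 and 9.0 in the lacZ libraries. Its strongest summits there were 1542, 1525 and 1488 bp before the start, at the 96.3rd, 77.6th and 88.1st percentile of their lists. DOC1 3 also had peaks in it, the one of higher fold with 5.59 (64.6th percentile) and its summit 2147 bp upstream. The other, with its summit 1559 bp upstream, close to those of the lacZ libraries, had a fold of 4.08 (18.9th percentile). In lists of equal length this region was in every lacZ and no DOC1 library. DOC1 1 had its peak closer in, with the summit 77 bp upstream of the start (28615578 to 28615912, fold 5.77), 0.76 kb from the upstream site.

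Inside FOSL2, DOC1 1 and DOC1 3 shared a pair of regions with no lacZ peak. The first, at 28629223 to 28630117, had folds of 10.4 and 5.79 and summits 46 bp apart. The second, at 28631940 to 28632506, had folds of 7.12 and 5.85 and summits 64 bp apart. Nearer to the start, a region at 28618284 to 28618700 held peaks of lacZ 1 and DOC1 3. Past the gene, 53.0 kb from the start, lacZ 1, DOC1 1 and DOC1 3 shared a region at 28668611 to 28669122, with folds of 4.48, 6.23 and 6.06. All told, 8 AP-1 regions were in DOC1 1 and DOC1 3 and no lacZ library (14.3%, against 10.6% of all regions), at JUN, JUNB, JUND, FOSB and FOSL2. DOC1 2 had no peak in any of the 8. This grouping of DOC1 1 and DOC1 3 was chosen after their values were seen.

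**Figure D3:**
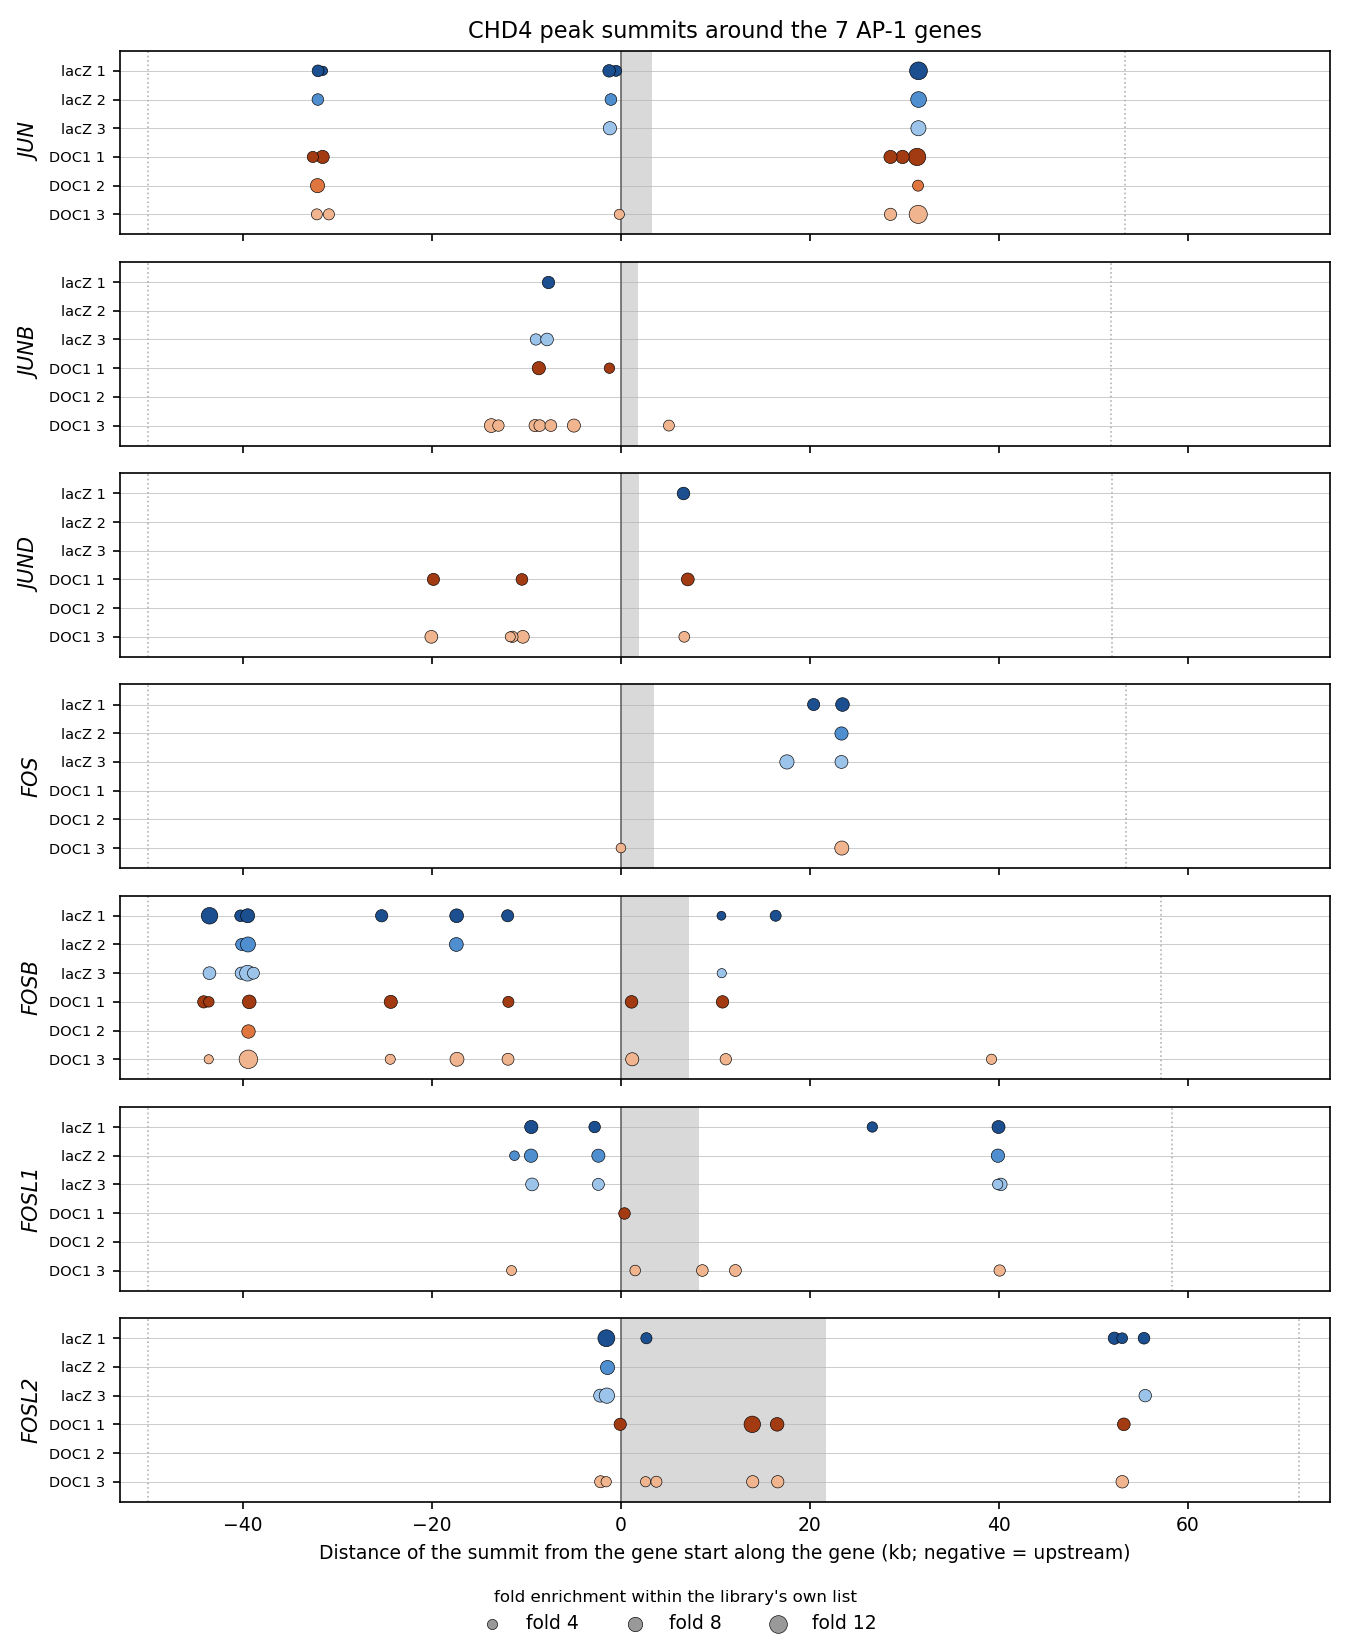
CHD4 summits around each AP-1 gene, by distance from the gene start along the gene (horizontal axis, kb, negative upstream) and library (rows); grey bands are gene spans, dotted lines window edges, and point area is proportional to fold within the library's own list. JUN and FOSB each show 1 site in all 6 rows, the lacZ rows of FOSL1 line up 2.4 and 9.5 kb upstream, and points inside FOSL2 near 13.9 and 16.6 kb are in DOC1 1 and DOC1 3.

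Peaks at the gene starts were few in both groups. Without DOC1, 1 of the 7 starts had a peak with any base within 1 kb in each library, and it was JUN every time. With DOC1, 3, 0 and 4 starts had one: FOSB, FOSL1 and FOSL2 in DOC1 1 and JUN, FOS, FOSB and FOSL2 in DOC1 3. The FOSL2 peak of DOC1 3 counted by its edge alone, with its summit 1559 bp upstream. The lacZ summits of that region lay 1542, 1525 and 1488 bp upstream, but their peaks ended short of the limit. The JUN peaks of lacZ 2 and lacZ 3 and the FOSB peaks also counted by an edge. The mean was 1 ± 0 without DOC1 and 2.33 ± 2.08 with it (SD, n = 3; exact permutation p = 0.4, adjusted p = 0.6). Without DOC1 2 the difference of 1.33 rose to 2.5 (exact p = 0.1, the smallest possible), and without DOC1 3 it was 0.5. With start distances of 2 and 5 kb in place of 1 kb, the difference over all libraries was 1 (exact permutation p = 0.7) and 0.33. In lists of equal length the order turned, to -0.33. No library had a peak within 1 kb of the JUNB or JUND start.

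The median AP-1 peak stood at the 52.0th, 63.7th and 49.0th percentile of fold in the lacZ libraries and at the 57.5th and 54.1st in DOC1 1 and DOC1 3. The 3 peaks of DOC1 2 had a median at the 90.4th. At or above the 95.6th percentile of a list were the shared JUN site in lacZ 1, DOC1 1 and DOC1 3 and the shared FOSB site in DOC1 3. So were the site 32.1 kb upstream of JUN in DOC1 2, that 43.6 kb upstream of FOSB and that upstream of FOSL2 in lacZ 1, and that 13.9 kb inside FOSL2 in DOC1 1. All 3 lacZ libraries held 9 AP-1 regions (16.1%, against 9.96% of all regions). Of these 9, DOC1 1 held 2 (22.2%), DOC1 2 held 2 (22.2%) and DOC1 3 held 5 (55.6%). Over all regions of the 3 lacZ libraries the shares were 67.7%, 30% and 84.2%. The 9 regions were picked by their lacZ peaks and lie at 5 genes, several of them neighbours, so these shares are a description. Joining peaks within 500 bp brought DOC1 peaks into those 1.2 kb upstream of JUN and 40.2 kb upstream of FOSB.

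**Figure D4:**
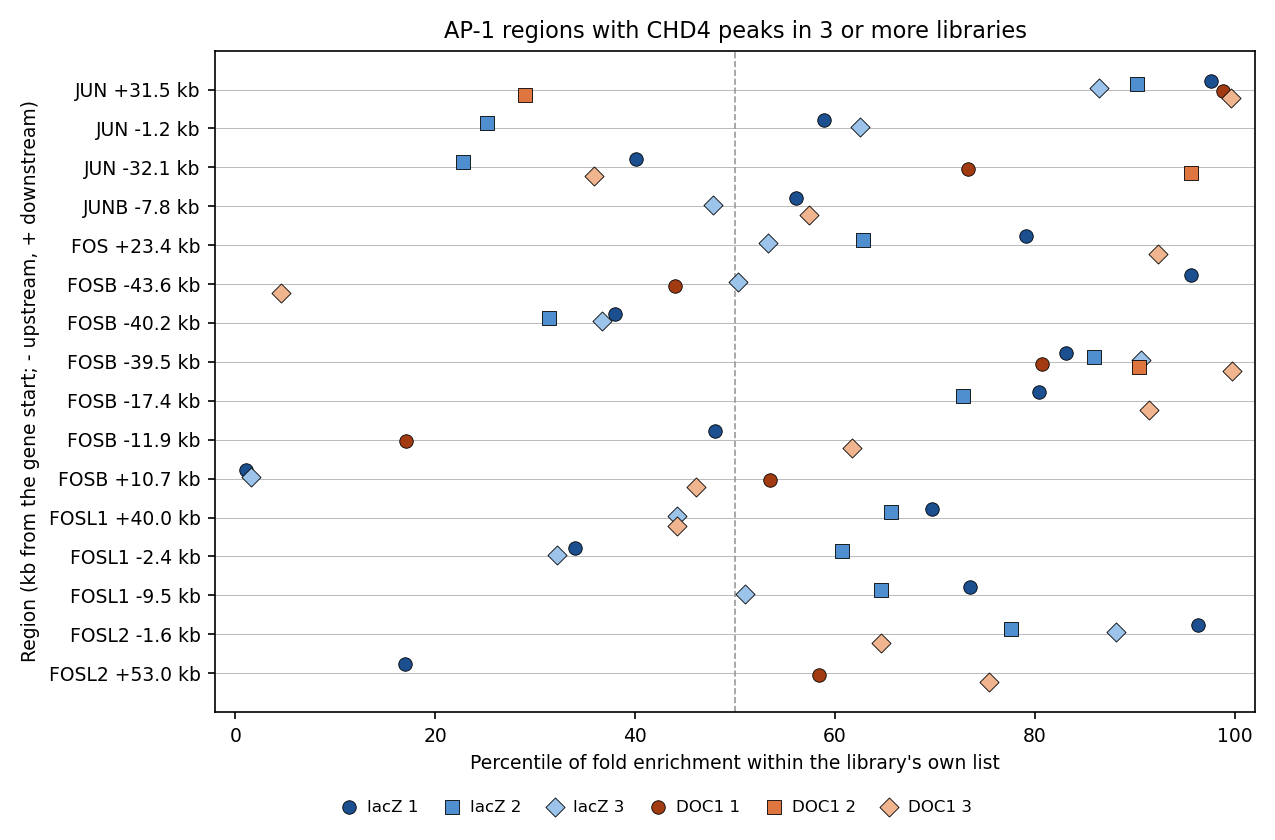
The 16 AP-1 regions with a peak in 3 or more libraries (vertical axis, named by gene and distance in kb from the gene start) and the percentile of fold enrichment of the strongest peak within the library's own list (horizontal axis); a library without a peak has no point. The region 39.5 kb upstream of FOSB lies above the 80th percentile in all 6 lists, and the region 31.5 kb past the JUN start in all but DOC1 2.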

How the data were processed

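CHD4 ChIP-seq of SCC9 cells was analysed through 6 peak lists, 1 per library and not pooled. Per the submitters' processing notes, the tools were Trimmomatic 0.33, BWA 0.7.12-r1039, SAMtools 1.2 and MACS2 2.1.1.20160309, with hg19 (GRCh37). The IgG libraries, 1 per condition, entered no comparison. For MACS2, control and settings were not given in the sources used here. Per peak, the authors deposited a position and summit, a fold enrichment (a ratio over local background), −log10 p-values and −log10 q-values, and a score that is 10 times the latter without its decimals. No counts per region were used, so regions were compared by presence of a peak.

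A peak belonged to a locus if it overlapped the gene span plus 50 kb by at least 1 bp. Peaks of the 6 lists sharing at least 1 bp were merged over the whole genome. Gene starts are the 5′ ends of the hg19 spans. Strands came from RefSeq, except that of FOSL1, which is the known orientation. A percentile ranks a peak's fold within its own list. Density over the genome takes the last peak end as the length of a chromosome. Summit reads were solved from fold and p-value, taking MACS2's pseudocount of 1 and Poisson test, with 1 scaling factor per library. A whole number of reads matched within 0.002 for 100% of peaks, and the step was tested on simulated data. Merging and pattern counts were also tested on simulated data. Exact permutation tests (two-sided, 20 assignments) compared library values.

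The text names the 7 genes, every region in 3 or more libraries and the one nearest to each gene start, and describes further regions chosen after their values were seen. The members, lists and rules were chosen with earlier results of these data known. Alternatives were a q-value threshold of 0.001, lists cut to the top 2812 peaks by p-value, flanks of 25 and 100 kb, joining peaks within 500 bp, regions from summits within 250 bp, start distances of 2 and 5 kb, a replicate block and leaving out each library. Other leucine zipper genes were not analysed here. RefSeq tables of GRCh38.p14 gave promoter sequences (6 of the 7 genes) and gene order only. Software was scipy 1.17.1, pandas 2.3.3, numpy 2.4.6 and matplotlib 3.10.9 under Python 3.11.15.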

Additional observations from a re-analysis of the deposited data

How the results depend on the processing

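The difference in AP-1 peaks per library (2.67) turned to -3.33 with lists of equal length and ranged from -6.17 to 11.8 with 1 library left out. The cause was not tested. In lists of equal length with DOC1 2 left out, a setting chosen after seeing the data, it was -1.67. With lists of equal length, gene starts with a peak differed by -0.33 (by -0.17 with DOC1 2 also left out, against 1.33), and they ranged from 0.5 to 2.5 with 1 library left out. The difference per 1000 peaks stayed negative in every setting run, from -2.09 to -0.75 with 1 library left out. It was -0.76 with a flank of 25 kb (exact permutation p = 0.5). In lists of equal length without DOC1 2 it was -0.59 (exact permutation p = 0.6). In neither of these settings were the groups apart. The 2 regions of all 6 libraries became 0 with a flank of 25 kb, which leaves both sites outside, and 2 to 3 with 1 library left out. Of regions in every lacZ and no DOC1 library, 4 in all, lists of equal length left 1, with or without DOC1 2. That 1 was the site upstream of FOSL2 and none of the 4. The 4 became 2 with peaks joined within 500 bp and 4 to 7 with 1 library left out, where fewer libraries are asked for. Shares over all regions are not given for joined peaks or lists of equal length. Regions of every DOC1 and no lacZ library numbered 0 to 8 with 1 library left out, the 8 without DOC1 2 (14.3%, against 10.6% of all regions). Other counts with 1 library left out were added after seeing the data. Regions of DOC1 alone (28) ranged from 14 to 33, of lacZ alone (12) from 7 to 21, of both groups (16) from 7 to 16, of 1 library (27) from 25 to 29 and of 3 or more (16) from 8 to 16. Loci with every DOC1 library above every lacZ library (0) ranged from 0 to 1, and the reverse (0) from 0 to 2.

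With a replicate block over same-numbered libraries the differences were 2.67 peaks (exact sign-flip p = 1), -1.52 per 1000 peaks (p = 0.25, the smallest 3 pairs allow) and 1.33 gene starts (p = 0.5). Same-numbered libraries did not all deviate together, with correlations over the tiles of 0.12, 0.44 and -0.06 for numbers 1, 2 and 3, so the numbers were not taken to pair them. Depth at the summits, from 9 to 100 reads, limits what a missing peak can show.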
